A study of Mus musculus with 8 samples.

Results

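Type I interferon-induced antiviral genes were followed in tumor-associated macrophages (TAMs) of 8 mice by RNA-seq. The 10 genes are Ifit1, Ifit2, Ifit3, Isg15, Rsad2, Mx1, Mx2, Oasl2, Usp18 and Cmpk2, chosen by name as the rows of these interferon-stimulated genes among the 23413 gene symbols of the count table, and all 10 passed the filter on low counts in every comparison. The choice was made with earlier results of these data known. Where 1 group had almost no counts of Mx2, that gene passed only through the other group, as given below. The study asked how thiostrepton, a thiopeptide antibiotic found to activate macrophages, changes the transcriptome of TAMs. Male B6 mice aged 8 to 10 weeks carried subcutaneous tumors of B16F10, a mouse melanoma cell line, and were dosed on days 6 and 12 after engraftment. TAMs were sorted on day 18 as CD45+F4/80+CD11b+Gr-1- cells, with 1 library per mouse. Of the 8 mice, 2 received the vehicle DMSO, 4 received thiostrepton by intraperitoneal injection (IP mice) and 2 received thiostrepton beside the tumor at 20 mg/kg (IS mice in the labels). IP treatment in the study used either of a pair of doses, both above that of the IS mice, and which one these 4 mice received is not stated in the sources used here, nor is the route of the 2 DMSO mice. Route and dose therefore cannot be told apart between IP and IS mice. All 8 mice carried the tumor, so no level in TAMs of an untreated or tumor-free mouse is at hand.

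Type I interferons, of which interferon-beta (Ifnb1) is the one macrophages make most readily, are secreted after sensors of foreign or misplaced nucleic acid or of bacterial products are triggered. They bind the receptor Ifnar1 and Ifnar2 on the same or neighbouring cells. The kinases Jak1 and Tyk2 then activate transcription factors, which join Irf9 and bind an interferon-stimulated response element before their target genes. Ifit1, Ifit2 and Ifit3 encode tetratricopeptide proteins that bind viral RNA or block its translation. Isg15 encodes a ubiquitin-like protein joined to other proteins, and Usp18 encodes the protease that removes it and that also damps signalling at the receptor. Rsad2 encodes viperin, an enzyme that turns CTP into a chain terminator of viral polymerases, and its neighbour Cmpk2 encodes a nucleotide kinase that can supply CTP. Oasl2 belongs to the family of the oligoadenylate synthetases, and Mx1 and Mx2 encode dynamin-like GTPases. In C57BL/6 mice the Mx genes carry defects that prevent a working protein, and the GENCODE vM21 annotation lists Mx2 as a polymorphic pseudogene, so their transcripts are read here only as a response.

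The genes lie on 6 chromosomes of GRCm38, the same assembly as mm10. Ifit2 (chr19:34550694-34576419), Ifit3 (chr19:34583531-34588731) and Ifit1 (chr19:34640871-34650009) form a cluster on the plus strand. Rsad2 (chr12:26442746-26456452, minus strand) and Cmpk2 (chr12:26469204-26479837, plus strand) point away from each other with 12751 bases between them. Mx1 (chr16:97447035-97462907, minus strand) and Mx2 (chr16:97535308-97560900, plus strand) are neighbours as well. Isg15 (chr4:156199424-156200818, minus strand), Oasl2 (chr5:114896936-114912234, plus strand) and Usp18 (chr6:121245906-121270917, plus strand) stand apart from these. The span of Usp18, introns included, shares 15715 bases with Gm44148, a long noncoding RNA gene on the other strand that has no row in the table. No strand setting of the counting is stated, so reads from exons that overlap could not be told apart. Whether exons of the pair overlap was not computed, and Usp18 has 2790 bases of exon.

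The upstream sequences show what several of these genes share besides their response to interferon. The core of the interferon-stimulated response element was searched as GAAANNGAA, or TTCNNTTTC for the other strand, in the 250 bases before each RefSeq start site. RefSeq windows (GRCm38.p6) matched 7 of the 10 genes, Usp18, Mx1 and Mx2 being without one. A match stood before 4 of the 7, namely Isg15, Rsad2, Ifit3 and Ifit1, whereas 8.18% of the 27025 genes with a window, or 7.13% of 32851 windows, held one. Those 4 stretches are printed on the strand of the gene, with 20 bases on each side in lower case and the matches, some of which overlap, in capitals. They are Isg15 (chr4:156200856-156200916, minus strand), Rsad2 (chr12:26456543-26456591, minus strand), Ifit3 (chr19:34583354-34583455, plus strand) and Ifit1 (chr19:34640760-34640833, plus strand).
Isg15: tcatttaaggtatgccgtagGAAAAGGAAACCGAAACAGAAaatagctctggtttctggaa
Rsad2: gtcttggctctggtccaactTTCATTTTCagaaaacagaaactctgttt
Ifit3: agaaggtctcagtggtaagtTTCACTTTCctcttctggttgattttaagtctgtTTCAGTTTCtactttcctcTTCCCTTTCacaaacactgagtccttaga
Ifit1: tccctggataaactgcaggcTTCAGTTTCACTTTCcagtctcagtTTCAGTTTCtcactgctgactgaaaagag
Isg15 held 3 overlapping matches, which began 78 to 66 bases before its start, all on the strand of the gene. Ifit3 and Ifit1 held 3 matches each, at 155 to 102 and 109 to 84 bases before the start, and Rsad2 held 1 at 119 bases, all on the other strand. Oasl2, Cmpk2 and both windows of Ifit2 had no match to these letters. Among other interferon-stimulated genes, 19 of 38 with a window had a match, against 2 of 8 for the receptor and signalling genes and 2 of 13 for the sensors and inducers.

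Between 14127506 and 17577466 counts per mouse were assigned to genes. Log2 CPM of pairs of mice correlated across genes with r of 0.819 to 0.978. Counts of low genes were unevenly distributed over the mice. Among 2027 genes with a mean of 1 to 5 CPM, 17.8% and 26.0% had at most 2 counts in IS mice 1 and 2, against 11% in IP mouse 1 and 1.33% to 4.54% in the other 5 mice. A floor of 3 counts, taken as the limit of detection, corresponded to 0.169 to 0.218 CPM and covers counting error only. All 8 macrophage markers examined, among them Emr1 (F4/80), Itgam (CD11b), Csf1r and Cd68, were detected in every mouse, with a summed level of 9185 to 14643 CPM. Markers of other cells were detected too, all at lower sums. The 6 melanoma markers, detected in all mice, summed to 583 and 643 CPM in DMSO mice, 430 to 1652 CPM in IP mice and 2965 and 680 CPM in IS mice. The 5 neutrophil markers summed to 68.2 and 110 CPM in DMSO mice, 26.1 to 110 CPM in IP mice and 199 and 279 CPM in IS mice. The 4 monocyte markers summed to between 19.0 CPM in IP mouse 2 and 315 CPM in IP mouse 1, there mostly from Chi3l3 at 290 CPM. Another of them, Ccr2, was at 59.9 and 79.2 CPM in DMSO mice, 7.30 to 20.1 CPM in IP mice and 60.7 and 76.7 CPM in IS mice. The 8 T and NK cell markers summed to 15 and 2.01 CPM in DMSO mice, 1.16 to 5.87 CPM in IP mice and 17.9 and 18.7 CPM in IS mice, and the 4 B cell markers stayed between 8.81 and 29.8 CPM. The 5 markers of conventional dendritic cells stayed between 1.61 and 13.9 CPM, and the 4 stromal markers between 0 and 7.50 CPM. Plasmacytoid dendritic cells are strong makers of type I interferon. Their 6 markers summed to 3.12 and 3.62 CPM in DMSO mice and 6.93 to 23.6 CPM in IP mice. In IS mice the sums were 4.37 and 2.33 CPM, and Cox6a2 made up most of the sum in each mouse. The other markers had few counts and did not share its direction. Siglech was at 0.543 and 0.287 CPM in DMSO mice and 0 to 0.226 CPM in IP mice. Ly6d was at 0.407 and 0.172 CPM in DMSO mice and 0 to 0.0583 CPM in IP mice. Ccr9 and Pacsin1 in IP mice lay on either side of the DMSO mice, and Klk1 had no count in 7 mice. In bulk RNA of sorted cells, fewer cells of a type and less RNA per cell cannot be told apart. The part of these cells in the results was not tested.

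Per kilobase of exon, the level of the antiviral genes spanned a wide range. Averaged over the 8 mice, Isg15 had 60.7, Ifit3 53.4, Ifit2 51.8, Rsad2 38.3 and Ifit1 33.2 CPM per kilobase. Cmpk2 (14), Usp18 (13.5) and Oasl2 (9.24) followed, and Mx1 (2.61) and Mx2 (0.753) were lowest on this scale. The order of the leading genes varied between mice, with Ifit2 at 154 and Isg15 at 88.6 CPM per kilobase in IP mouse 4 and Ifit2 at 17 and Isg15 at 91.6 in IP mouse 1. Ifnb1 itself had 16.5 CPM per kilobase. The sequences of the Ifit genes limit how well they can be told apart. The longest transcripts of Ifit3 and Ifit3b, listed in the table as I830012O16Rik, were 98.0% identical over 1697 bases, and 51.2% of the 50-base stretches of Ifit3 also occurred in Ifit3b, so the authors' counting could divide reads between them. The summed CPM of the pair were 134 and 39.7 in DMSO mice, 65.7, 52.1, 131 and 298 in IP mice and 73.7 and 66.8 in IS mice in the same order of mice as for Ifit3 alone within each group. Mx1 and Mx2 were 81.2% identical and shared 4.8% of such stretches, and no such stretch was shared among Ifit1, Ifit2 and Ifit3.

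The DMSO mice differed from each other in every antiviral gene. DMSO mouse 1 was above DMSO mouse 2 in 10 of 10 genes and at least 2-fold above it in 7, with log2 differences of 0.46 to 1.99 and a median of 1.10. Over all 12378 genes retained, the median log2 difference was 0.01, with 4.26% at least 2-fold higher and 6.83% at least 2-fold lower in DMSO mouse 1. Ifit2 differed the most, with 343 CPM in DMSO mouse 1 and 86.2 CPM in DMSO mouse 2. Ifit3 was at 115 and 35.8 CPM, Usp18 at 42.9 and 15.1 CPM and Ifit1 at 94.8 and 33.6 CPM. Mx2, Rsad2 and Mx1 were the 3 genes less than 2-fold apart. With 1 mouse on each side these are differences between libraries, without a test. That the DMSO mice differ was known when the 10 genes were chosen. The shares beside all genes are therefore a description and no evidence that these genes differ more. The distance between the DMSO mice exceeded the fitted change from DMSO to IP in 7 of 10 genes and the fitted change from DMSO to IS in 9 of 10. The share of all genes for which this held was not computed, so these counts cannot be read as particular to the 10 genes. Ifnb1, the ligand, was further apart than any of the 10 genes, with 14.4 CPM in DMSO mouse 1 and 2.87 CPM in DMSO mouse 2, a log2 difference of 2.28.

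Among the Ifit genes, IP mouse 4 stood above all other mice. Ifit1 was at 76.8, 45.4, 70.5 and 221 CPM in IP mice 1 to 4 and at 62.2 and 101 CPM in the IS mice. IP mice 1 to 3 and IS mouse 1 were thus between the DMSO mice, and IP mouse 4 and IS mouse 2 above both. Ifit2 was at 66.8, 92.9, 184 and 605 CPM in IP mice and 78.0 and 172 CPM in IS mice. IP mouse 1 and IS mouse 1 were below both DMSO mice for Ifit2, and IP mouse 4 alone was above both. Ifit3 was at 56.6, 42.5, 111 and 249 CPM in IP mice and 70.4 and 65.4 CPM in IS mice. All but IP mouse 4 were between the DMSO mice, and no group was separate from another for any of the 3 genes.

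The modifier Isg15 had another order. It was at 41.6 and 19.5 CPM in DMSO mice, 69.3, 16.2, 57.4 and 67.0 CPM in IP mice and 65.7 and 30.4 CPM in IS mice. IP mouse 2 was the lowest of all 8 mice, far from the other 3 IP mice, which together with IS mouse 1 were above both DMSO mice. Its protease Usp18 was at 45.4, 19.9, 35.9 and 93.4 CPM in IP mice and 20.6 and 27.5 CPM in IS mice. Only IP mice 1 and 4 exceeded both DMSO mice for Usp18.

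The neighbours Rsad2 and Cmpk2 agreed on IP mouse 4 as the highest mouse and IP mouse 2 as the lowest but not on the IS mice. Rsad2 was at 126 and 91.1 CPM in DMSO mice, 231, 69.3, 199 and 373 CPM in IP mice and 107 and 132 CPM in IS mice. IP mice 1, 3 and 4 and IS mouse 2 were above both DMSO mice. Cmpk2 was at 51.8 and 24.1 CPM in DMSO mice, 42.9, 20.01, 50.6 and 129 CPM in IP mice and 62.6 and 86.0 CPM in IS mice. Both IS mice were above both DMSO mice for Cmpk2, the only one of the 10 genes for which that held, while the IP mice overlapped them. The share of all genes separated in this way was not computed, here or for the separations given below, which are descriptions only.

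Oasl2 was at 67.3 and 32.3 CPM in DMSO mice, 22.1, 43.8, 76.7 and 89.5 CPM in IP mice and 86.8 and 52.7 CPM in IS mice. IP mouse 1, the highest mouse for Isg15, was the lowest for Oasl2 and also for Ifit2. Mx1 was at 7.12 and 4.71 CPM in DMSO mice, 14.7, 3.77, 17.4 and 22.3 CPM in IP mice and 1.01 and 8.01 CPM in IS mice. IP mice 1, 3 and 4 exceeded both DMSO mice, and IS mouse 1 was below every other mouse. Mx2, with the fewest reads, had 31 and 26 counts in DMSO mice, 23, 24, 101 and 161 counts in IP mice and 0 and 2 counts in IS mice. Both IS mice were thus below the other 6 mice for Mx2.

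**Figure D1:**
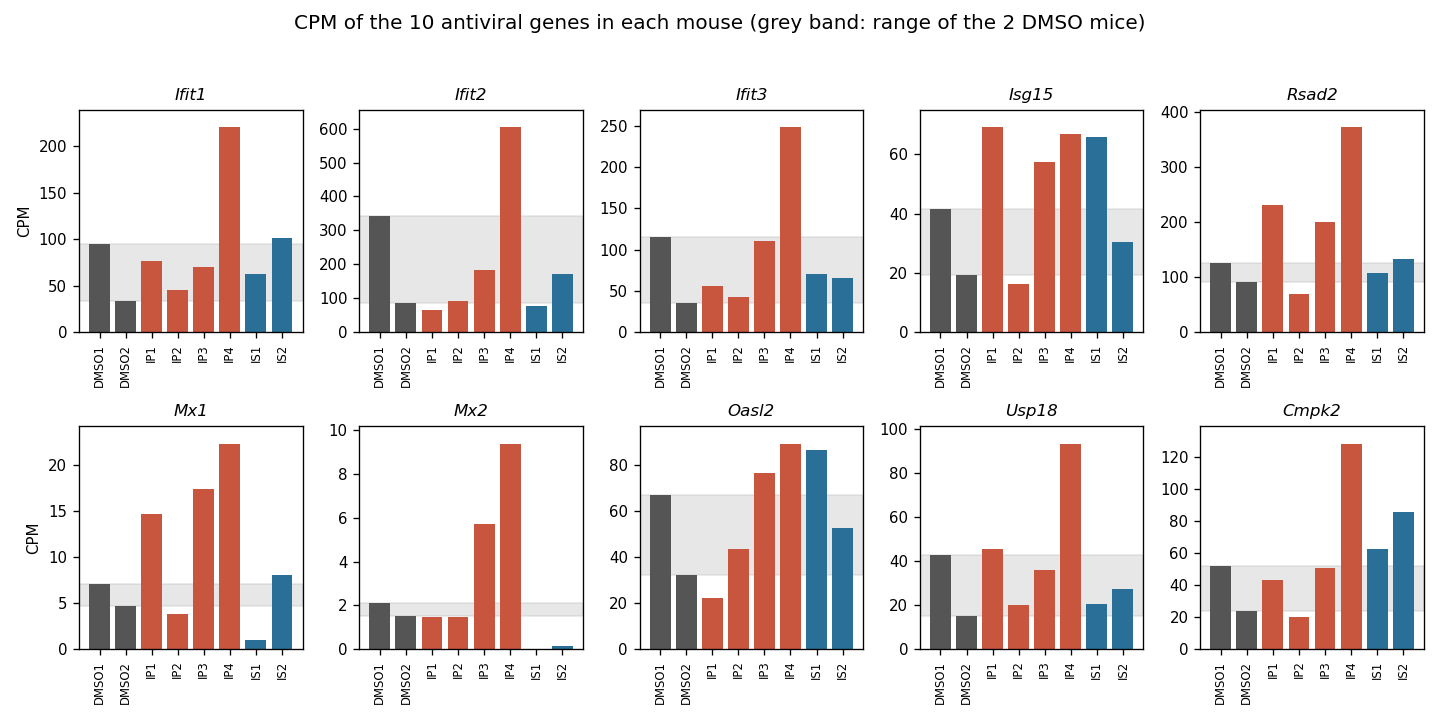
CPM (y axis, from 0, a separate scale for each gene) of the 10 antiviral genes in each mouse (x axis), with DMSO mice in dark grey, IP mice in red and IS mice in blue, and a grey band from the lower to the higher DMSO mouse. IP4 is the highest bar for 9 of the 10 genes, IP1 for Isg15, and for Mx2 the IS bars are at 0 and 0.146 CPM.

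Compared one by one with the DMSO mice, the treated mice fell on either side of them. IP mouse 4 was above both DMSO mice in 10 of 10 genes, where 37.5% of all genes were above both and 37.3% below both. IP mouse 3 was above both in 5 and below both in 0, beside 32.2% and 31.5% of all genes. IP mouse 1 was above both in 4 and below both in 3, beside 41.3% and 42.1% of all genes. IP mouse 2 was above both in 0 and below both in 5, beside 29.5% and 29.8% of all genes. IS mouse 1 was above both in 3 and below both in 3, beside 40.6% and 41.8%, and IS mouse 2 was above both in 4 (2 with library size as the only scaling) and below both in 1, beside 38.9% and 41.9%. The choice of the control mouse decided the sign for most mice. Against DMSO mouse 2, the median log2 difference of the 10 genes was above 0 in 6 of 6 treated mice, from 0.04 in IP mouse 2 to 2.48 in IP mouse 4. Against DMSO mouse 1 it was above 0 in only IP mouse 4 (1.17) and IP mouse 3 (0.08), and the other 4 mice had values from -1.08 in IP mouse 2 to -0.29 in IP mouse 1. The corresponding medians over all genes were between -0.04 and 0.01.

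**Figure D2:**
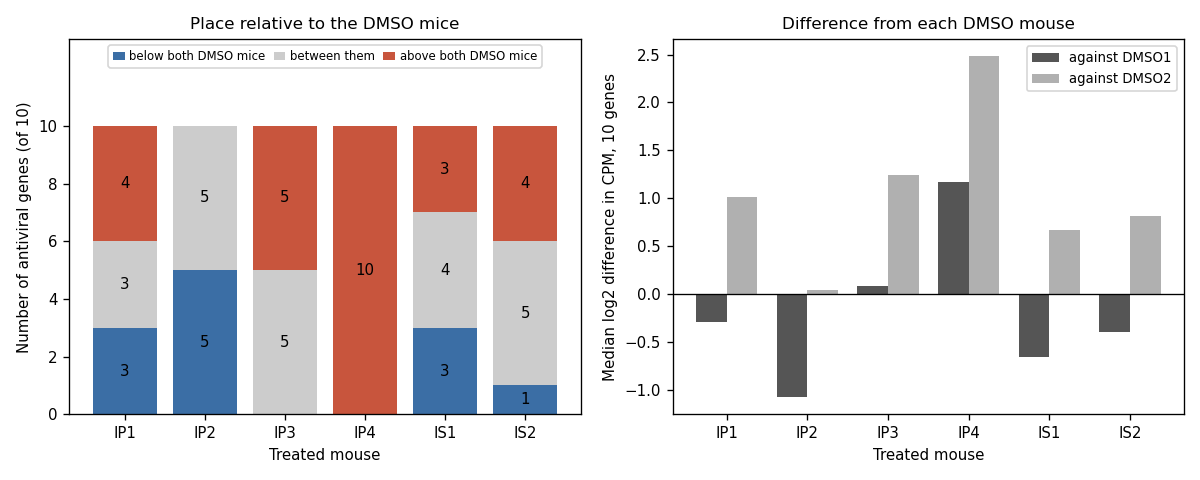
Left, number of the 10 antiviral genes (y axis) below both DMSO mice, between them or above both, for each treated mouse (x axis); right, median log2 difference in CPM over the 10 genes (y axis) of each treated mouse from DMSO1 and from DMSO2. IP4 is above both DMSO mice in all 10 genes, and IP1, IP2, IS1 and IS2 have opposite signs against the 2 DMSO mice.

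The mean log2 CPM of the 10 genes was 5.54 ± 0.97 in IP mice (SD, n = 4), 4.97 ± 0.81 in DMSO mice (SD, n = 2) and 4.77 ± 0.36 in IS mice (SD, n = 2). Without Mx2, whose 0 and 2 counts in the IS mice make its log2 value depend on the prior count, the IS mean (5.57 ± 0.31) was above the DMSO mean (5.42 ± 0.86), and the IP mean was 5.96 ± 0.94. The group means thus differed by less than the SD of the IP mice, and the means of the 10 genes ran from 4.43 (IP2) to 6.74 (IP4) within IP and from 4.40 (DMSO2) to 5.54 (DMSO1) within DMSO.

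Thiostrepton by IP injection was compared with DMSO for the effect on TAMs of the drug given systemically. All 10 antiviral genes had a log2 fold change above 0, from 0.15 for Ifit2 to 1.32 for Mx2, with a median of 0.71, but none was called. A gene was called where edgeR's quasi-likelihood test gave an unadjusted P under 0.05 and the change was at least 2-fold, the criterion of the study. Of the 12174 genes tested, 1.53% were called higher and 0.468% lower, the median log2 fold change was 0.02 and 51.8% were above 0. Mx2 had a log2 fold change of 1.32 ± 0.86 (SE), Mx1 of 1.29 ± 0.63 and Rsad2 of 1.0 ± 0.55, the 3 largest, each with an unadjusted P above 0.05, and the adjusted p of the 10 genes by the edgeR test were 0.980 to 0.992. Isg15 (0.77 ± 0.56), Usp18 (0.74 ± 0.62), Ifit1 (0.68 ± 0.65), Cmpk2 (0.67 ± 0.66) and Ifit3 (0.61 ± 0.73) had log2 fold changes about as large as their SE, and Oasl2 (0.22 ± 0.54) and Ifit2 (0.15 ± 0.87) smaller ones. No gene of the whole table had an adjusted p under 0.05 by the quasi-likelihood test, while 418 had an unadjusted P under 0.05, and DESeq2 found 19 with an adjusted p under 0.05 and the likelihood ratio test of edgeR 10, none of them among the 10 antiviral genes. The IP mice did not lie entirely above or below the DMSO mice for any of the 10. The share of all genes for which they did was not computed. Among markers of other cells, 1 of 3 tested plasmacytoid dendritic cell markers (Cox6a2) was called higher in IP mice and 1 of 4 monocyte markers (Ccr2) lower, with median log2 fold changes of 1.16 and 0.19 for these lists. No marker tested in the other 6 lists was called, and the part of these cells was not tested.

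Single mice carried the size of this comparison. Without IP mouse 4 the median log2 fold change was 0.10, and Ifit2 (-0.91), Ifit3 (-0.11), Oasl2 (-0.07) and Cmpk2 (-0.01) were below 0. Without IP mouse 2 the median was 0.99, and Mx1 (1.62), Rsad2 (1.30) and Isg15 (1.08) were called higher by the edgeR test, beside 2.33% of all genes and with no adjusted p under 0.05. Without DMSO mouse 1 the median was 1.52, and without DMSO mouse 2 it was 0.20, with Ifit2 (-0.53), Ifit3 (-0.01) and Oasl2 (-0.21) below 0. Mx1 was also called higher by DESeq2, by the likelihood ratio test and without the filter on low counts, beside 2.24%, 2.21% and 1.54% of all genes and each with an adjusted p above 0.05.

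Paratumor thiostrepton was compared with DMSO for the effect of the drug given beside the tumor. Only Mx2 was called among the 10 genes. It passed the filter on low counts here only through the DMSO mice, and a gene kept in this way can only be called lower. The 2 counts of Mx2 in the IS mice against 57 in the DMSO mice gave a ratio of 0.0394 (95% counting interval 0.00466 to 0.149). This interval pools the reads of each group and leaves out the variation between mice. The fitted log2 fold change of Mx2 was -4.52 ± 1.62 (SE; adjusted p = 0.846 by edgeR). One of 10 called lower compares with 2.77% of the 11680 genes tested, and 0 of 10 called higher with 2.29%. Cmpk2 was the gene with the next smallest P, at a log2 fold change of 0.95 ± 0.47 (SE; adjusted p = 0.997 by edgeR). Isg15 (0.63 ± 0.57), Oasl2 (0.46 ± 0.48), Ifit1 (0.33 ± 0.57) and Rsad2 (0.12 ± 0.33) had values above 0 and Ifit2 (-0.80 ± 0.73), Mx1 (-0.41 ± 1.10), Usp18 (-0.29 ± 0.59) and Ifit3 (-0.17 ± 0.57) below 0. The median was -0.03, with 5 of 10 above 0, beside a median of 0.02 over all genes. No gene of the table had an adjusted p under 0.05 by this test and 632 had an unadjusted P under 0.05, whereas DESeq2 and the likelihood ratio test gave 107 and 179 genes with an adjusted p under 0.05, none of them among the 10.

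The IS mice also differed in their genes at low counts, as given above, and in markers of other cells. Of all genes, 2.29% were called higher than in DMSO mice. Of the markers tested, 4 of 5 neutrophil, 2 of 3 B cell, 3 of 6 melanoma and 1 of 4 monocyte markers were. The part of the low counts and of these cells in the low count of Mx2 and in the other values was not tested. With 1 mouse left out, the fitted change of Mx2 stayed between -7.84 and -3.58, but it was not called without DMSO mouse 1 or without DMSO mouse 2 by edgeR, nor by DESeq2. Fits with a lone IS mouse, which is assumed to vary like the DMSO mice, called many genes over the whole table. Without IS mouse 2, Mx1 (-2.60), Ifit2 (-1.52) and Mx2 were called lower and Isg15 (1.05) higher, beside 17.1% and 10.7% of all genes. Without IS mouse 1, Cmpk2 was called higher (1.16), beside 10.1% of all genes. The median of the 10 genes was 0.76 without DMSO mouse 1 and -0.47 without DMSO mouse 2, so its sign depended on the control mouse.

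The IS and IP mice, which differ in route and dose, were then compared directly. Mx2 was again the only gene called, with 2 counts in the IS mice against 309 in the IP mice. The ratio was 0.0152 (95% counting interval 0.00183 to 0.0552, again without the variation between mice). Mx2 passed the filter on low counts here only through the IP mice. The fitted log2 fold change of Mx2 was -5.84 ± 1.60 (SE; adjusted p = 0.346 by edgeR), and it stayed between -9.21 and -4.88 with 1 mouse left out. DESeq2 and the likelihood ratio test gave 1 of the 10 an adjusted p under 0.05. Of the 12206 genes tested, 4.64% were called lower and 2.41% higher in IS mice. Mx1 (-1.69 ± 0.94), Usp18 (-1.01 ± 0.58), Ifit2 (-0.93 ± 0.85), Rsad2 (-0.86 ± 0.56), Ifit3 (-0.76 ± 0.66), Ifit1 (-0.34 ± 0.60) and Isg15 (-0.12 ± 0.57) were lower on average in IS mice and not called, and Cmpk2 (0.30 ± 0.62) and Oasl2 (0.27 ± 0.52) were higher and not called. The median was -0.81, with 2 of 10 above 0 and a median of 0.02 over all genes, and it was -0.02 without IP mouse 4. Without IP mouse 2, Rsad2 (-1.16), Mx1 (-2.01) and Usp18 (-1.27) were called lower as well, beside 3.62% of all genes. Without IS mouse 2, which leaves a lone IS mouse, Mx1 (-3.84) was called lower, beside 11.0% of all genes. Markers called higher in IS than in IP mice were 3 of 5 for neutrophils, 2 of 4 for T and NK cells, 2 of 3 for B cells, 1 of 3 for conventional dendritic cells and 1 of 4 for monocytes, 1 of 3 for plasmacytoid dendritic cells was called lower, and their part was not tested. No gene of the table had an adjusted p under 0.05 by the quasi-likelihood test, and 1049 had an unadjusted P under 0.05, against 234 with an adjusted p under 0.05 by DESeq2 and 265 by the likelihood ratio test.

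**Figure D3:**
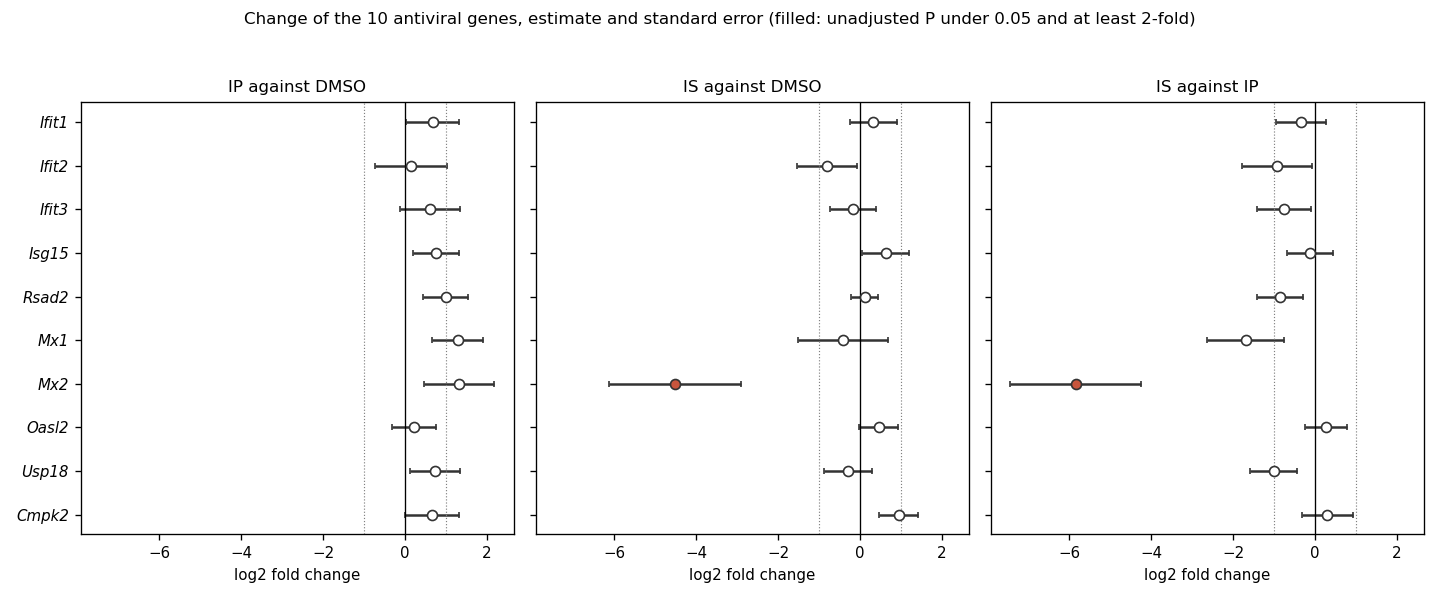
Log2 fold change (x axis) of the 10 antiviral genes (y axis) in the 3 comparisons, points with their SE as bars, filled where the gene was called, with dotted lines at a 2-fold change. All points are right of 0 for IP against DMSO and none is filled, while Mx2 is filled at -4.52 and -5.84 in the comparisons with the IS mice.

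Upstream of the antiviral genes, the ligands were nearly silent except Ifnb1. Of 18 type I interferon genes listed, 16 had a row, 11 of these had no count in any mouse, and only Ifnb1 had enough counts to be tested. Ifnb1 had 212 and 50 counts in DMSO mice, 316, 80, 246 and 417 counts in IP mice and 97 and 161 counts in IS mice. Its highest mouse was IP mouse 4 and its lowest DMSO mouse 2, the extremes of the mean of the antiviral genes too, and no group was separate from another. The log2 fold change of Ifnb1 was 0.87 ± 0.73 for IP against DMSO, 0.06 ± 0.90 for IS against DMSO and -0.79 ± 0.65 for IS against IP, none of them called. The other interferon genes had at most 50 counts over the 8 mice. Ifna4 had 44 of its 50 counts in IS mouse 1, and Ifnz had 22 of its 27 counts in IP mouse 1.

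Of 9 genes of the receptor and its signalling tested, among them Ifnar1, Ifnar2, Jak1, Tyk2 and Irf9, 0 were called for IP against DMSO. Of all genes, 1.53% were called higher and 0.468% lower in that comparison. For IS against IP 0 of the 9 were called, beside 2.41% of all genes higher and 4.64% lower. Median log2 fold changes of the 9 were 0.12 for IP against DMSO, 0.14 for IS against DMSO and 0.08 for IS against IP. For IS against DMSO 1 was called higher, beside 2.29% of all genes. The gene called was Socs3, an inhibitor of cytokine receptor signalling, at 30.7 and 25.2 CPM in DMSO mice and 83.7 and 117 CPM in IS mice. Its log2 fold change was 1.82 ± 0.36 (SE; adjusted p = 0.747 by edgeR), and its IP mice, at 152, 20.4, 43.2 and 27.0 CPM, reached from below both DMSO mice to above both IS mice. With all 3 groups in 1 fit, Socs3 was not called for IS against DMSO (1.85).

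Among 17 sensors and inducers tested, of nucleic acid sensors, adaptors, kinases and Irf factors, 0 were called for IP against DMSO. In each of the other comparisons 1 was called higher, beside 2.29% of all genes for IS against DMSO and 2.41% for IS against IP. That gene was Tlr3, the endosomal sensor of double-stranded RNA. It was at 9.09 and 5.86 CPM in DMSO mice, 4.52, 6.93, 8.07 and 8.28 CPM in IP mice and 17.2 and 23.8 CPM in IS mice, both IS mice being above the other 6. The log2 fold change of Tlr3 was 1.43 ± 0.54 (SE; adjusted p = 0.880 by edgeR) for IS against DMSO and 1.56 ± 0.43 (SE; adjusted p = 0.346 by edgeR) for IS against IP. The call against DMSO was lost without either DMSO mouse and with library size as the only scaling (1.28), and the call against IP held without each mouse in turn.

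Other interferon-stimulated genes, 46 in the list, had 0 of 45 tested called for IP against DMSO. For IS against DMSO, 2 of 44 were called lower, beside 2.77% of all genes, and for IS against IP, 5 of 45, beside 4.64% of all genes, with 0 called higher in either. Their median log2 fold changes were 0.10, -0.03 and 0.05. The list thus had a median near that of all genes in each comparison, and the 5 genes called are given here with their levels. Gm14446 (Ifit1bl1), a gene of the Ifit cluster, had 49 and 42 counts in DMSO mice, 0, 21, 68 and 168 counts in IP mice and 1 and 2 counts in IS mice. It was called for IS against DMSO (log2 fold change -4.68 ± 1.24) and IS against IP (-5.04 ± 2.13), but IP mouse 1 with 0 counts overlapped the IS mice. I830012O16Rik (Ifit3b) had 278 and 69 counts in DMSO mice, 143, 157, 353 and 844 counts in IP mice and 49 and 18 counts in IS mice, with both IS mice below the other 6. It was called for IS against IP at -3.24 ± 0.90 and not for IS against DMSO at -2.33 ± 1.02 (adjusted p = 0.940 by edgeR). Its near copy Ifit3 held 81.7% to 90.03% of the reads of the pair in DMSO and IP mice and 95.5% and 98.0% in IS mice.

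Parp9, a partner of a ubiquitin ligase induced by interferon, was at 31.6 and 22.2 CPM in DMSO mice, 18.5, 20.6, 41.5 and 32.6 CPM in IP mice and 13.3 and 10.9 CPM in IS mice. Its log2 fold change was -1.17 ± 0.45 for IS against DMSO and -1.22 ± 0.44 for IS against IP. Parp14, an ADP-ribosyltransferase, was at 16.4 and 15.8 CPM in DMSO mice, 23.5, 10.3, 25.6 and 21.9 CPM in IP mice and 5.45 and 9.39 CPM in IS mice, with -1.45 ± 0.51 for IS against IP. Both IS mice were below the other 6 mice for each of the pair. Oas1b, an oligoadenylate synthetase family gene, was at 1.49 and 2.07 CPM in DMSO mice, 4.40, 0.791, 3.05 and 3.50 CPM in IP mice and 0.740 and 0.218 CPM in IS mice, with -2.59 ± 1.11 for IS against IP. Adjusted p of these 5 genes by edgeR were 0.352 to 0.571 for IS against IP. Without either DMSO mouse, Gm14446 and Parp9 were not called for IS against DMSO. For IS against IP, leaving out IP mouse 3, IP mouse 4, IS mouse 1 or IS mouse 2 ended the call of Gm14446, and IP mouse 3, IP mouse 4 or IS mouse 2 that of Parp9. That of Oas1b ended without IP mouse 1, 3 or 4 or IS mouse 2 and that of Parp14 without IP mouse 3 or IS mouse 1, while I830012O16Rik was called without each mouse in turn. Like Mx2, Gm14446 and Oas1b passed the filter on low counts only through the DMSO or IP mice in the comparisons with IS mice. Oas1b had 11 and 3 counts in the IS mice and reached the minimum count of 10 in IS mouse 1 alone. Gm14446 and Oas1b are at few counts in the IS mice, like Mx2, and the part of the low counts in these mice was not tested.

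**Figure D4:**
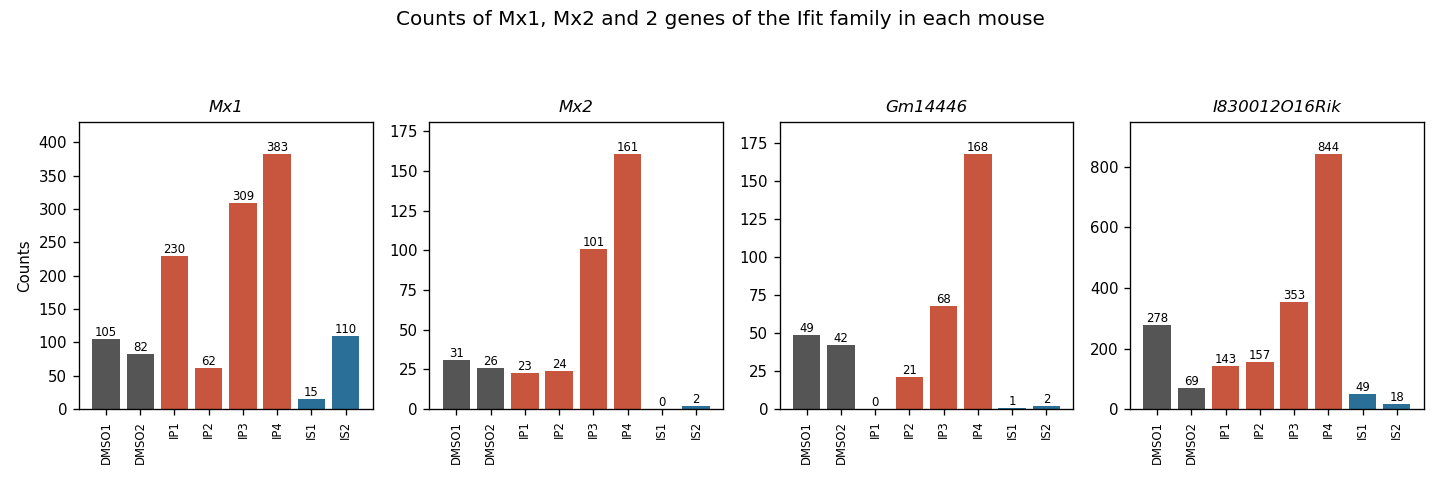
Counts (y axis, from 0, a separate scale for each gene, printed above each bar) of Mx1, Mx2, Gm14446 and I830012O16Rik in each mouse (x axis), with DMSO mice in dark grey, IP mice in red and IS mice in blue. The IS mice have 0 and 2 counts of Mx2, 1 and 2 of Gm14446 and 49 and 18 of I830012O16Rik, while IS2 with 110 counts of Mx1 is above both DMSO mice in counts.

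The profile over the mice was then used to find genes with a like pattern. The mean centred log2 CPM of 9 antiviral genes, all but Mx2, which averaged under 5 CPM, was 0.30 and -0.91 in DMSO mice, -0.01, -0.87, 0.41 and 1.40 in IP mice and -0.38 and 0.06 in IS mice. Likeness of another gene was measured as the mean absolute difference from this profile over the 8 mice, among 9319 genes. Of the 9 genes themselves, Ifit1 was closest to their mean at 0.192 and Mx1 farthest at 0.652. The nearest other gene was Oasl1, an oligoadenylate synthetase-like gene beside Oasl2, at a distance of 0.217. Slc7a2, a carrier of cationic amino acids, followed at 0.242, Pyhin1, of the interferon-inducible PYHIN family, at 0.284 and Icosl, the ligand of the T cell receptor Icos, at 0.288. Erbb2ip (0.327), Pydc4 (0.332), Tor1aip1 (0.348) and Ifnb1 (0.351) completed the nearest 8, and with a prior count of 0.5 Ifnb1 was not among them. Oasl1 was at 79.6 and 48.5 CPM in DMSO mice, 62.1, 51.0, 98.9 and 145 CPM in IP mice and 48.4 and 71.2 CPM in IS mice, with IP mouse 4 highest again. Stat2 ranked 11. Of 39 other interferon-stimulated genes ranked, 5 were among the nearest 100 genes, which are 1.07% of the genes ranked. With 8 mice of 3 groups in 1 measure, this likeness is a description and the nearest genes share the libraries with the profile.

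**Figure D5:**
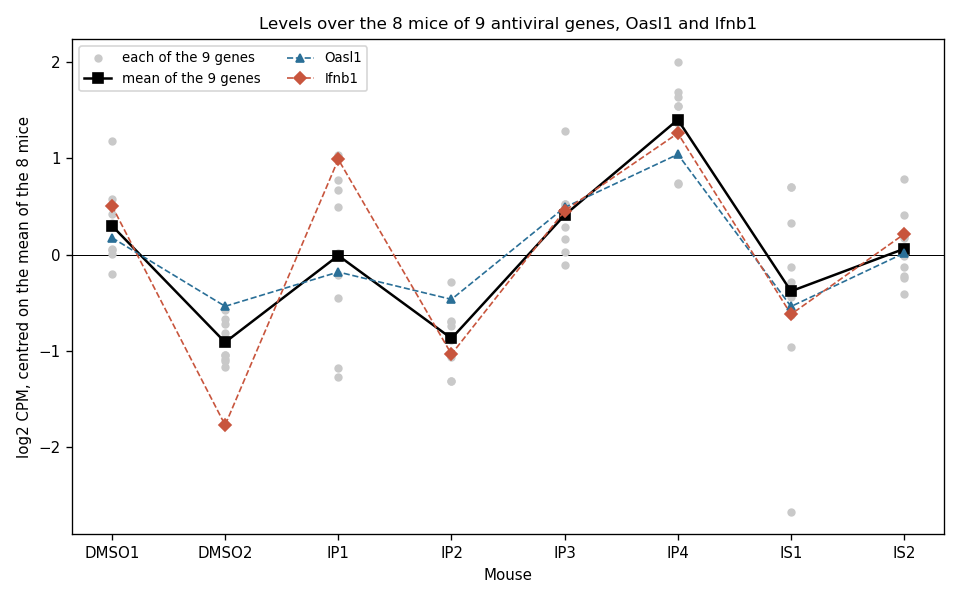
Log2 CPM centred on the mean of the 8 mice (y axis) for each mouse (x axis), with grey points for 9 antiviral genes, black squares for their mean, and colored symbols for Oasl1 and Ifnb1. Oasl1 and Ifnb1 are highest in IP4, where the mean is at 1.40.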

How the data were processed

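RNA-seq data came from TAMs of 8 mice with B16F10 tumors, 1 library per mouse. Whole-number counts per gene symbol were deposited by the authors without normalization. The methods of the study name bowtie2 and RSEM on mm10, and the submitters' processing notes name TopHat2 and edgeR, so the aligner behind the counts is uncertain. The strand setting is not given in the sources used here.

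Groups follow the sample labels. The analysis ran in R 4.3.3, with edgeR 4.0.16 as the main tool and limma 3.58.1 and DESeq2 1.42.0 beside it. filterByExpr (minimum count 10, minimum total 15) chose the genes to test, and TMM factors scaled the libraries. A separate fit for each pair of groups gave, by edgeR's two-sided quasi-likelihood test, every P and adjusted p (Benjamini-Hochberg over all genes tested). A gene was called at an unadjusted P under 0.05 and at least 2-fold, the study's criterion. SE values are derived from the F statistic and the log2 fold change, and a prior count of 2 entered log2 CPM. Intervals of count ratios are exact and two-sided, on reads pooled per group, and cover counting error only. Of the symbols, 21777 (93.0%) were found in GENCODE vM21. The procedure was tested on simulated data for the median of changes planted in genes with ample counts. That test covered neither false calls nor genes with almost no counts in a group, such as Mx2.

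The 10 genes and the lists of other genes were chosen with earlier results of these data known. Genes named besides the 10 are those called in a list, or its 2 of smallest P where none was, and the 8 of most similar profile. Alternatives were, for the filter, none or 1 CPM in 2 samples, for scaling, RLE or the library size alone, for the test, DESeq2 or the likelihood ratio test, and for the design, 1 fit of 3 groups, same-numbered mice as a block or 1 mouse left out. For profiles they were a prior count of 0.5 and division by the SD. A block with crossed numbers was chosen after the data were seen. Correlations of deviations of same-numbered mice were -0.129 to 0.071, so the numbers were not taken to pair mice.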

Additional observations from a re-analysis of the deposited data

Results flagged for a closer look

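Isg15 in the IP mice had IP mouse 2 at 16.2 CPM and the other 3 at 57.4 to 69.3 CPM. On the log2 CPM scale used for the check, the gap below the other IP mice was 0.87 of the whole range of the group. It was the 1 gene with so distant a mouse among 25 genes examined in the IP group, the only group of a size that allows the check, and by chance a small share of such groups has one.

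The direct comparison of IS with IP mice, between which route and dose cannot be told apart, called 7 of those genes by edgeR at an unadjusted P under 0.05 and at least 2-fold. No adjusted p was under 0.05, and 4.64% of all genes were called lower and 2.41% higher in the same comparison. Of the 7, 6 were named because they were called in a comparison with IS mice, so their number is no result. Mx2 had a log2 fold change of -5.84, Gm14446 of -5.04, I830012O16Rik of -3.24 and Oas1b of -2.59. Parp14 was at -1.45 and Parp9 at -1.22, while Tlr3 was at 1.56. Both IS mice were below all 4 IP mice for Mx2, I830012O16Rik, Oas1b, Parp14 and Parp9 and above them for Tlr3, whereas IP mouse 1 had no count of Gm14446. The share of all genes separated in this way was not computed. Mx2, Gm14446 and Oas1b passed the filter on low counts only through the IP mice. Oas1b, with 11 and 3 counts in the IS mice, reached the minimum count of 10 in IS mouse 1 alone. In the IS mice 17.8% and 26.0% of genes with a mean of 1 to 5 CPM had at most 2 counts, and the part of this in the differences was not tested.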

How the results depend on the processing

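All values are log2 fold changes or counts of genes. Under RLE size factors and the filter of 1 CPM in 2 samples, no direction or call among the 10 genes changed.

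For IP against DMSO, 1 of the 10 genes was called higher, in place of 0, with no filter, with the likelihood ratio test and with DESeq2, and all genes called were 160 with 3 groups in 1 fit, in place of 243. Leaving out single mice gave 0 to 3 called higher, medians of 0.10 to 1.52 and 116 to 361 calls over all genes. Ifit1 then ranged from 0.00 to 1.62, Ifit2 from -0.91 to 1.46, Ifit3 from -0.11 to 1.68, Oasl2 from -0.21 to 0.84 and Cmpk2 from -0.01 to 1.32. With the replicate block, a fit pairing same-numbered mice which leaves out IP mice 3 and 4, the median was -0.11, with Ifit2 at -1.14, Ifit3 at -0.40, Mx2 at -0.29, Oasl2 at -0.59 and Cmpk2 at -0.28.

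For IS against DMSO, Rsad2 was at -0.03 with library size only, and 0 genes were called lower, in place of 1, with DESeq2, the replicate block and the crossed block, in which Ifit3 was at 0.05 in both and 1 gene, Cmpk2, was called higher with the crossed block. Leaving out single mice gave 0 to 1 called higher, 0 to 3 called lower, 0 to 2 with an adjusted p under 0.05, medians of -0.47 to 0.76 and 113 to 3432 calls over all genes (113 without DMSO mouse 2, 2989 without IS mouse 1 and 3432 without IS mouse 2, where a lone mouse is assumed to vary like the other group). Ifit1 ranged from -0.25 to 1.25, Ifit2 from -1.52 to 0.50, Ifit3 from -0.79 to 0.89, Isg15 from -0.03 to 1.26, Rsad2 from -0.10 to 0.36, Mx1 from -2.60 to 0.41 and Usp18 from -0.87 to 0.64.

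For IS against IP, 1 gene had an adjusted p under 0.05 with the likelihood ratio test and with DESeq2. With the replicate block, again without IP mice 3 and 4, 1 was called higher and 0 lower, the median was 0.40, 389 genes were called over all genes, and Ifit1 was at 0.41, Ifit2 at 0.54, Ifit3 at 0.45 and Isg15 at 0.39. Leaving out single mice gave 1 to 4 called lower, medians of -1.10 to -0.02 and 632 to 2115 calls over all genes. Ifit1 ranged from -0.73 to 0.34, Ifit2 from -1.61 to 0.12, Isg15 from -0.79 to 0.32 and Oasl2 from -0.14 to 0.58. IS mouse 2 was above both DMSO mice in 2 genes with library size only. The cause of these changes was not tested. With a prior count of 0.5, Ifnb1 was the 1 gene lost from the 8 most similar, and with profiles divided by their SD it was Tor1aip1. For IS against DMSO, the call of Tlr3 was lost under both blocks too.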
